A study of Homo sapiens with 16 samples.

Results

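The subject is a set of 10 genes, VSNL1, KISS1R, TNFRSF13C, MCAM, MXRA8, TNS4, SH2D5, LFNG, GLYCTK and ABHD14B. They are 10 of 17104 genes tested, and they were chosen by their strong falls after OTUD5 siRNA in cells with either genotype. That fall is therefore given as a description without a test. The cells were HCT116, an established human colon cancer line, either unedited (WT) or edited so that the proteasome subunit Rpn10, encoded by PSMD4, lacks its ubiquitin interacting motif (truncation). Each genotype received a scrambled siRNA (scramble) or a mix of 4 siRNAs against OTUD5 (knockdown), at 50 nM for 48 hours, which gave 4 groups of 4 libraries. All knockdown libraries received the same mix, so loss of OTUD5 and other effects of these siRNAs cannot be told apart, and the labels do not say whether the edited line is 1 clone. The Rpn10 edit and other differences between the edited and WT cells cannot be told apart either. Sample titles call every library a biological replicate, but the labels do not say whether these were separate cultures or transfections. Each p-value reflects spread among libraries whose independence is not described further. In bulk RNA, fewer cells expressing a gene and less RNA per cell cannot be told apart.

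OTUD5 is a deubiquitinase, an enzyme that removes ubiquitin from other proteins, and Rpn10 is one of the proteasome's receptors for ubiquitin chains. The 10 genes belong to mostly unrelated families. VSNL1 encodes visinin-like protein, a calcium sensor best known in neurons. KISS1R is the receptor for kisspeptin and signals through Gq proteins to phospholipase C, and TNFRSF13C is the receptor through which B cells respond to the survival factor BAFF. MCAM and MXRA8 are cell surface proteins with immunoglobulin-like domains. TNS4 is a tensin, an adaptor at integrin contacts that lacks the actin-binding part of other tensins, and SH2D5 is an adaptor with a phosphotyrosine-binding domain. LFNG is a Fringe glycosyltransferase that extends O-fucose on Notch receptors and so shifts their response to ligands. GLYCTK is glycerate kinase, which acts in the breakdown of serine and fructose, and ABHD14B is a protein of the alpha/beta-hydrolase fold.

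OTUD5 itself checked the treatment labels. WT cells had 83.9 to 91.0 CPM of it (counts scaled to library size with the TMM method) under scramble and 17.5 to 22.2 CPM under knockdown. Truncation cells had 91.7 to 96.7 CPM and 19.3 to 22.3 CPM. The 4 truncation libraries with knockdown have titles that say scramble, and were grouped by their description and treatment, which say OTUD5 siRNA. The count of PSMD4 over its whole length does not check the genotype. Epithelial genes were present, with EPCAM, CDH1, KRT8, KRT18 and KRT19 all expressed and a summed level of 12 colon epithelial markers of 3890 to 5510 CPM, while VIL1, CDX1, LGR5, ASCL2 and CEACAM5 had between 2 and 33 counts over all 16 libraries. Library totals were 28777244 to 29645663 counts. In WT knockdown replicate 3 a count was found in 32264 genes, against 25626 to 27765 in the others. WT scramble replicate 4 held 326 counts of the leukocyte gene PTPRC and 737 of the receptor gene CSF3R, against 1 to 25 and 0 to 45 in the other libraries.

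The 10 genes lie on 8 chromosomes. Only GLYCTK and ABHD14B are on the same stretch, on chromosome 3, with starts 303.7 kb apart. Promoter windows of 250 bases before and 50 after an annotated start were available for 6 of the 10 genes (RefSeq, GRCh38.p14, 11 windows), and the stretch before the start is shown for the 4 genes with a window that lies there outside any annotated exon. LFNG has 2 such windows, of which the outer one is shown. The MCAM and GLYCTK windows lie inside the gene spans given below, so they precede an inner annotated start. The MXRA8 and LFNG windows shown lie outside those spans. Sequences are written 5′ to 3′ on the gene's strand, and capitals mark the matches to the motifs named after them, on either strand.
MCAM, chr11:119317131-119317380, minus strand: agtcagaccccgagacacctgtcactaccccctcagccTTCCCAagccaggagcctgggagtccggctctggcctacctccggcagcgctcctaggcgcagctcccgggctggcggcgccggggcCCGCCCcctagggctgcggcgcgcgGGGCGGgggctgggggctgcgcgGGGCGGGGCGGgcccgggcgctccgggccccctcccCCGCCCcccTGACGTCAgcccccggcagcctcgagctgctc
MXRA8, chr1:1361800-1362049, minus strand: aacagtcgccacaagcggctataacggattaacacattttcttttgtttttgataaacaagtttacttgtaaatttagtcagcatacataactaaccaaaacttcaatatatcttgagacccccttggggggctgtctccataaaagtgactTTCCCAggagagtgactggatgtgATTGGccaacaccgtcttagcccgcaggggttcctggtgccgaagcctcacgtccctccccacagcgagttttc
LFNG, chr7:2512279-2512528, plus strand: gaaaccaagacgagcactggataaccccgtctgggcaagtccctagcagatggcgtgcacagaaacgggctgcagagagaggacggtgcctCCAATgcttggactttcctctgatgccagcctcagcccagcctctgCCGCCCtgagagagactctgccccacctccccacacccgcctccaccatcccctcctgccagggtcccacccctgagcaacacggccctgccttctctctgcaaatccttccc
GLYCTK, chr3:52289816-52290065, plus strand: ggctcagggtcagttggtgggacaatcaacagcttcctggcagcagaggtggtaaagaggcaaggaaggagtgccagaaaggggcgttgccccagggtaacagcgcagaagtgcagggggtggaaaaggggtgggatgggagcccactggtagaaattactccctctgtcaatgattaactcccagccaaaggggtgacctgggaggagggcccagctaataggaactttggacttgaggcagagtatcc
The MCAM stretch is rich in GC boxes (GGGCGG and its complement), with an RBPJ core (TTCCCA, the letters bound by the Notch pathway's DNA-binding factor) near its far end and a cAMP response element core (TGACG) on both strands close to the start. The MXRA8 stretch holds an RBPJ core and a CCAAT box, and the LFNG stretch a CCAAT box and a GC box. The GLYCTK stretch, which lies inside the gene's span, holds no match to any of the 13 motifs searched. Base composition differs as much, since G and C make up 78.0% of the whole MCAM window, 62.3% of the LFNG window shown, 58.0% of the GLYCTK window and 46.7% of the MXRA8 window shown, against a median of 58.7% over all 35116 windows of the table. A gene's own windows differed too. The other MXRA8 windows, which overlap exons of the gene, had 69.3% and 69.0% and before the start a GC box only, and the second LFNG window had 56.0%, with a CCAAT box and an RBPJ core.

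Over whole windows of 300 bases, the RBPJ core was found for 5 of the 6 genes (ABHD14B, LFNG, MCAM, MXRA8 and VSNL1), in 54.5% of their windows against 24.0% of all windows. Before the start alone it was found for 4 of them, VSNL1 dropping out. The GC box was found for the same 5 genes, again in 54.5% of windows, against 45.0% of all, and a CCAAT box for LFNG, MXRA8 and VSNL1, in 45.5% against 34.6%. Single genes carried the rest. A TATA box (TATAAA) was found for VSNL1, in 9.09% of the genes' windows against 11.5% of all. The letters GCGCNTGCG of the respiratory factor NRF1 were also found for VSNL1, at 9.09% against 7.47%, and the antioxidant response core (TGACNNNGC), which overlaps a TGACG match, for ABHD14B, at 9.09% against 13.3%. TGACG itself was found for ABHD14B and MCAM, at 18.2% against 24.6%. No window of the 6 genes held the MYC form of the E-box (CACGTG, 7.26% of all windows), the AP-1 site (TGANTCA, 7.71%), the TCF/LEF core (CTTTGA, 12.9%), the cell cycle homology region (TTTGAA, 15.2%), the E2F core (TTCGCGC, 2.24%) or the ETS core (CCGGAA, 17.2%). These are matches of letters only. The windows of 1 gene can overlap, as a pair of MXRA8 windows do by all but 8 bases.

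After knockdown all 10 genes lay lower in every library than in any scramble library of either genotype, which the choice of the genes favours. The share of all tested genes whose groups separate was not computed, here or for the single genes below. In WT cells the log2 fold change ran from -2.46 for VSNL1 to -1.58 for LFNG, with a median of -2.08, and in truncation cells from -2.98 for VSNL1 to -1.37 for TNFRSF13C, with a median of -2.46. All 10 were counted as lower at an adjusted p under 0.05, where edgeR's quasi-likelihood test called 50.3% of all tested genes in WT cells and 56.7% in truncation cells in either direction. The share called lower was 25.1% in WT and 28.1% in truncation cells. That all 10 were counted follows from the choice of the genes and is printed for scale. Over all tested genes the median log2 fold changes were 0.01 and 0.02 in WT and truncation cells. Relative to WT cells, the fall in truncation cells was larger for 9 of the 10 genes as fitted and smaller for TNFRSF13C, with a median difference of -0.50 on the log2 scale against -0.01 over all genes. That difference is made of the values that chose the genes and carries no test.

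**Figure D1:**
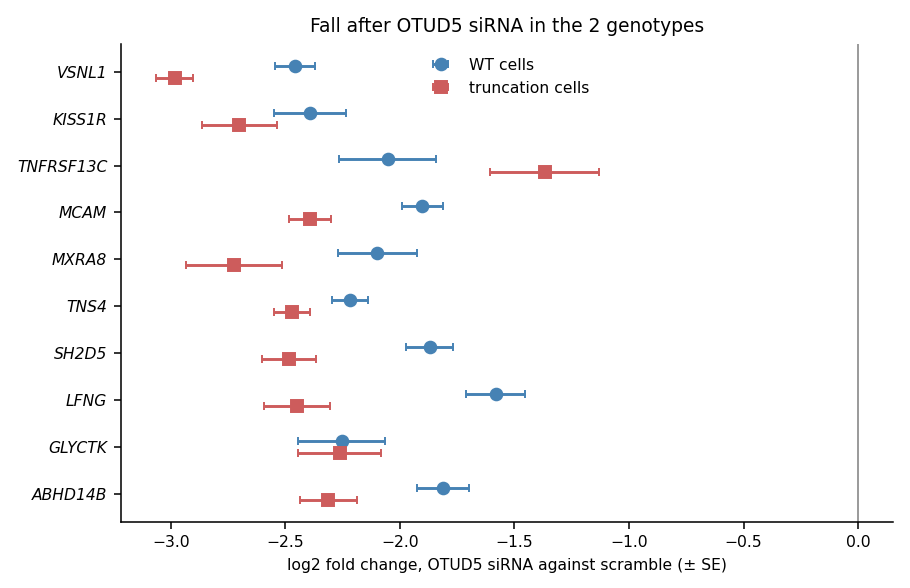
Log2 fold change of knockdown against scramble for each of the 10 genes in WT (blue) and truncation cells (red), with bars of 1 standard error. Every point lies below -1, from -1.37 for TNFRSF13C to -2.98 for VSNL1, both in truncation cells.

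The genotype gave the comparison that did not choose the genes. Truncation was set against WT as the mean over both treatments, so that a fall shared by both genotypes cancels. VSNL1 and MCAM were higher in truncation cells and KISS1R, TNFRSF13C, MXRA8, SH2D5, LFNG and ABHD14B lower, which makes 8 of 10 called, where edgeR called 56.1% of all genes, 26.8% higher and 29.3% lower. The median log2 fold change of the 10 was -0.51 against -0.02 over all genes. In scramble cells alone 7 of 10 were called (2 higher, 5 lower), where 44.0% of all genes were, and in knockdown cells alone 6 of 10 (1 higher, 5 lower), where 45.5% were. All 16 libraries entered the choice of the genes, those of the averaged comparison included. At equal spread among groups that average is uncorrelated with either knockdown change, while the comparisons within 1 treatment are not. Calls in both directions are also what all genes gave, and the shared fall with the siRNA follows from the choice of the genes.

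**Figure D2:**
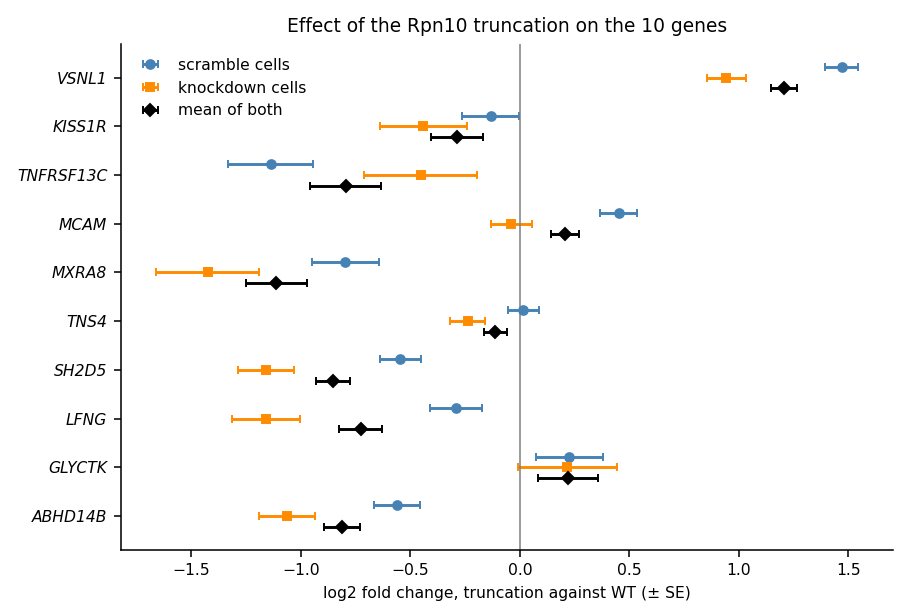
Log2 fold change of truncation against WT for each of the 10 genes in scramble cells (blue), in knockdown cells (orange) and as the mean of both (black), with bars of 1 standard error. VSNL1 stands apart at 1.21 for the mean, and MXRA8 is lowest at -1.11.

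VSNL1 (ENSG00000163032, GRCh38 chromosome 2, 17539126 to 17657018, plus strand) had the largest fall with knockdown of the 10 genes as fitted, and the largest change with truncation in scramble cells and on average. In knockdown cells MXRA8, LFNG, SH2D5 and ABHD14B changed more with truncation. In WT cells it stood at 53.9, 53.5, 55.5 and 51.8 CPM in scramble replicates 1 to 4 and at 11.3, 8.25, 9.53 and 9.75 CPM in knockdown. In truncation cells the scramble libraries had 149.4, 155.1, 145.1 and 150.6 CPM and the knockdown libraries 16.95, 18.6, 22.5 and 16.2 CPM. The 4 groups did not overlap, in the order truncation scramble, WT scramble, truncation knockdown, WT knockdown. Knockdown left 18.1% of the mean level in WT cells and 12.3% in truncation cells, that is log2 fold changes of -2.46 ± 0.09 and -2.98 ± 0.08 (SE). The rise with truncation was 1.47 ± 0.08 in scramble cells, 0.94 ± 0.09 in knockdown cells and 1.21 ± 0.06 on average, and edgeR gave 4.75e-14, 4.71e-09 and 5.78e-15 as adjusted p. Truncation cells with knockdown thus kept 34.5% of the WT scramble level, the highest such share of the 10 genes. Neuron markers, summed over 8 genes, ranged from 78.1 to 90.4 CPM in scramble and from 78.3 to 109 CPM in knockdown libraries, nearly all of it SYT1, and STMN2, GAP43 and ELAVL4 had 2 to 5 counts in all.

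KISS1R (ENSG00000116014, chromosome 19, 917287 to 921015, plus strand), the kisspeptin receptor, had 11.2, 10.6, 7.77 and 11.7 CPM in WT scramble and 2.71, 1.33, 1.81 and 1.95 CPM in WT knockdown replicates. Truncation cells had 9.52, 9.35, 9.37 and 9.80 CPM in scramble and 1.12, 1.23, 1.74 and 1.60 CPM in knockdown. The scramble and knockdown groups separated, while WT and truncation overlapped within each treatment. Its log2 fold change with knockdown was -2.39 ± 0.16 in WT and -2.70 ± 0.16 in truncation cells, leaving 18.9% and 15.0%. On average over treatments it was lower in truncation cells, with a log2 fold change of -0.29 ± 0.12 with an edgeR adjusted p of 0.0425. The call did not survive 10 of the 16 leave-one-out fits, with an adjusted p of up to 0.175 without WT knockdown replicate 1. The ligand gene KISS1 was too low to be tested.

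TNFRSF13C (ENSG00000159958, chromosome 22, 41922023 to 41926818, minus strand), the BAFF receptor, was the least abundant of the 10 per length, at 1.08 CPM per kb of exon in WT scramble cells. It had 4.32, 4.95, 3.23 and 4.58 CPM in WT scramble and 1.10, 0.66, 0.89 and 1.43 CPM in WT knockdown. In truncation cells it had 2.14, 1.78, 1.94 and 1.97 CPM in scramble and 0.63, 0.68, 0.49 and 1.14 CPM in knockdown, the last from 15 to 35 counts per library. Scramble libraries of the 2 genotypes did not overlap and knockdown libraries did. It was the only one of the 10 with a smaller fall in truncation cells (-1.37 ± 0.24, 37.6% left) than in WT cells (-2.05 ± 0.21, 23.9% left), a difference of 0.69. It was lower in truncation cells, with a log2 fold change of -1.14 ± 0.19 in scramble cells (adjusted p = 3.49e-05) and -0.80 ± 0.16 on average (0.000172), both by edgeR. In knockdown cells the change of -0.45 ± 0.26 did not pass (edgeR adjusted p = 0.161), but it did without truncation knockdown replicate 4 (-0.76, 0.0227).

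Other B cell genes gave the following values beside TNFRSF13C. The summed level of 8 B cell markers was 9.85 to 21.7 CPM under scramble and 3.45 to 5.83 CPM under knockdown in WT cells. In truncation cells these sums were 15.7 to 16.9 CPM and 6.39 to 7.31 CPM. Of the 4 that could be tested 3 were lower with knockdown in WT cells and 2 in truncation cells by edgeR. CD22 changed by -1.62 ± 0.10 and -1.37 ± 0.09 and CD79B by -1.97 ± 0.46 and -3.27 ± 0.50, while CD79A was called in neither (-0.06 ± 0.35 and 0.65 ± 0.37). The third call in WT cells was PTPRC, whose counts come mostly from WT scramble replicate 4. The defining genes MS4A1, PAX5 and BLK had 26 to 71 counts over all 16 libraries and were not tested. In WT scramble replicate 4 TNFRSF13C lay within the range of its group, and without that library its truncation change was -1.10 in scramble cells and -0.78 on average (edgeR adjusted p of 0.000122 and 0.000323). The part of these markers in the fall of TNFRSF13C was not tested.

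MCAM (ENSG00000076706, chromosome 11, 119308529 to 119321521, minus strand), an adhesion molecule known from melanoma and endothelium, had 95.1, 92.8, 92.9 and 93.7 CPM in WT scramble and 30.3, 19.4, 22.5 and 27.3 CPM in WT knockdown. The truncation libraries gave 127.2, 134.9, 121.7 and 132.9 CPM in scramble and 21.5, 23.3, 27.4 and 23.8 CPM in knockdown. The genotypes separated in scramble cells and overlapped in knockdown cells, so that a gene with different starting levels ended at similar ones. The log2 fold change with knockdown was -1.90 ± 0.09 in WT (26.6% left) and -2.39 ± 0.09 in truncation cells (18.6% left). MCAM was higher in truncation cells by a log2 of 0.45 ± 0.08 in scramble cells (adjusted p = 0.000107) and 0.21 ± 0.06 on average (0.0072) by edgeR. In knockdown cells the difference was -0.04 ± 0.09 (edgeR adjusted p = 0.76). Its exons share 509 bases, 6.86% of its exon length, with CBL on the opposite strand, and the strand setting of the counts is not given in the sources used here. CBL was lower with knockdown in WT cells (-0.29 ± 0.10) and stood at -0.17 ± 0.10, not called by edgeR, in truncation cells. Endothelial markers, summed over 8 genes, stayed between 1.09 and 3.89 CPM in all libraries.

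MXRA8 (ENSG00000162576, chromosome 1, 1352689 to 1361777, minus strand), known as an entry receptor for some alphaviruses, had 8.15, 8.48, 5.69 and 6.04 CPM in WT scramble and 1.68, 1.26, 1.81 and 1.81 CPM in WT knockdown. In truncation cells it had 4.13, 3.63, 4.48 and 4.22 CPM in scramble and 0.83, 0.31, 0.62 and 0.65 CPM in knockdown. The 4 groups formed separate steps, and the lowest rested on 9 to 25 counts per library. With both the edit and the siRNA 8.49% of the WT scramble level remained, the smallest share of the 10 genes. Knockdown changed it by -2.10 ± 0.17 in WT and -2.73 ± 0.21 in truncation cells. It was lower in truncation cells, with log2 fold changes of -0.80 ± 0.15 in scramble cells, -1.43 ± 0.24 in knockdown cells and -1.11 ± 0.14 on average, with adjusted p of 0.000151, 2.23e-05 and 2.69e-07 by edgeR. Fibroblast markers, summed over 8 genes and nearly all COL1A1, were 46.5 to 56.0 CPM under scramble and 34.1 to 50.5 CPM under knockdown in WT cells. The sums were 34.0 to 37.2 CPM and 35.7 to 41.9 CPM in truncation cells. DCN, LUM, PDGFRA and FAP had 3 to 26 counts in all. The part of these genes in the levels of MXRA8 was not tested.

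TNS4 (ENSG00000131746, chromosome 17, 40475828 to 40501597, minus strand), the tensin, was the most abundant of the 10 per length in WT scramble cells, at 21.6 CPM per kb. It had 104.4, 110.1, 98.1 and 106.9 CPM in WT scramble and 23.9, 24.2, 19.2 and 22.3 CPM in WT knockdown. In truncation cells it had 107.1, 111.7, 104.3 and 105.0 CPM in scramble and 15.7, 18.2, 19.3 and 22.1 CPM in knockdown. Genotypes overlapped in each treatment. Knockdown changed TNS4 by -2.22 ± 0.08 in WT (21.4% left) and -2.47 ± 0.08 in truncation cells (17.6% left). Its truncation change was 0.02 ± 0.07 in scramble cells and -0.11 ± 0.05 on average, neither called by edgeR (adjusted p of 0.884 and 0.0836). The change in knockdown cells, -0.24 ± 0.08, passed (edgeR adjusted p = 0.019), and was lost in 4 fits without 1 library (WT knockdown replicate 1 or 2, truncation knockdown replicate 1 or 2), with an adjusted p of up to 0.096. The average over treatments passed without WT knockdown replicate 3 or truncation knockdown replicate 4 (adjusted p of 0.029 and 0.0123).

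SH2D5 (ENSG00000189410, chromosome 1, 20719732 to 20732837, minus strand), the other adaptor, had 21.1, 21.5, 19.95 and 20.3 CPM in WT scramble and 5.76, 5.07, 5.39 and 6.31 CPM in WT knockdown. Under truncation it stood at 14.4, 13.9, 13.1 and 15.96 CPM in scramble and 2.64, 1.95, 3.31 and 2.09 CPM in knockdown. All 4 groups were separate. Knockdown changed it by -1.87 ± 0.10 in WT (27.2% left) and -2.48 ± 0.12 in truncation cells (17.4% left). It was lower in truncation cells, with log2 fold changes of -0.55 ± 0.09 in scramble, -1.16 ± 0.13 in knockdown and -0.85 ± 0.08 on average, with adjusted p of 4.29e-05, 5.06e-08 and 1.44e-09 by edgeR.

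LFNG (ENSG00000106003, chromosome 7, 2512529 to 2529177, plus strand), the Notch-modifying enzyme, had 19.3, 18.5, 15.2 and 19.4 CPM in WT scramble and 7.57, 4.12, 5.75 and 6.58 CPM in WT knockdown. In truncation cells it had 14.3, 17.1, 13.9 and 14.6 CPM in scramble and 2.08, 2.66, 3.15 and 2.78 CPM in knockdown. The genotypes overlapped in scramble and separated in knockdown cells. LFNG kept the most in WT cells, 33.2% (-1.58 ± 0.13), and 17.8% in truncation cells (-2.45 ± 0.14). Its change with truncation was -1.16 ± 0.16 in knockdown cells and -0.73 ± 0.10 on average (adjusted p of 1.22e-06 and 7.34e-07 by edgeR). The change in scramble cells, -0.29 ± 0.12, passed narrowly (edgeR adjusted p = 0.0485) and was lost in 12 of the 16 fits without 1 library, with an adjusted p of up to 0.141 without truncation scramble replicate 3, and with DESeq2 (0.0544) or the replicate block (0.0583).

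GLYCTK (ENSG00000168237, chromosome 3, 52287089 to 52293476, plus strand), glycerate kinase, had 4.43, 4.05, 4.16 and 5.36 CPM in WT scramble and 1.03, 0.77, 0.56 and 1.39 CPM in WT knockdown. Truncation cells gave 5.60, 5.04, 5.23 and 5.37 CPM in scramble and 1.42, 0.82, 1.02 and 1.05 CPM in knockdown. Genotypes overlapped in each treatment. The falls were alike as fitted, -2.25 ± 0.19 in WT (20.8% left) and -2.26 ± 0.18 in truncation cells (20.3% left), a difference of -0.01. GLYCTK was called in no truncation comparison by edgeR, with 0.22 ± 0.15 in scramble cells, 0.22 ± 0.23 in knockdown cells and 0.22 ± 0.14 on average (adjusted p of 0.247, 0.465 and 0.177). The average passed without WT knockdown replicate 4 (0.34, edgeR adjusted p = 0.0327). Of its exon length 14.3% lies opposite GLYCTK-AS1, which had 44 counts over all libraries against 1368 for GLYCTK. A further 44 bases (1.46%) lie opposite WDR82, which had 142854 counts and stood at 0.10 ± 0.05 and 0.14 ± 0.05 with knockdown in WT and truncation cells, the second called by edgeR. The part of WDR82 reads in the count of GLYCTK was not tested.

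ABHD14B (ENSG00000114779, chromosome 3, 51968510 to 51983409, minus strand), the hydrolase-fold protein, had 46.7, 44.2, 42.2 and 45.1 CPM in WT scramble and 14.1, 8.42, 14.2 and 13.6 CPM in WT knockdown. In truncation cells it had 27.5, 29.8, 30.1 and 34.4 CPM in scramble and 6.11, 5.25, 6.98 and 5.58 CPM in knockdown. The 4 groups were separate. Knockdown changed it by -1.81 ± 0.11 in WT (28.2% left) and -2.31 ± 0.12 in truncation cells (19.6% left). It was lower in truncation cells, with log2 fold changes of -0.56 ± 0.11 in scramble, -1.06 ± 0.13 in knockdown and -0.81 ± 0.08 on average, with adjusted p of 0.000109, 2.56e-07 and 8.12e-09 by edgeR. The gene overlaps ABHD14A on the opposite strand over 12.4% of its exon length. ABHD14A had 551 counts over all libraries against 10820 and was called in neither knockdown comparison (0.02 ± 0.21 and 0.05 ± 0.23). On its own strand ABHD14B shares 52 bases (1.65%) with PCBP4, which had 22780 counts and fell in both genotypes (-0.64 and -0.82). ACY1, opposite 4.18%, had 125 counts. The part of these overlaps in the fall of ABHD14B was not tested.

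**Figure D3:**
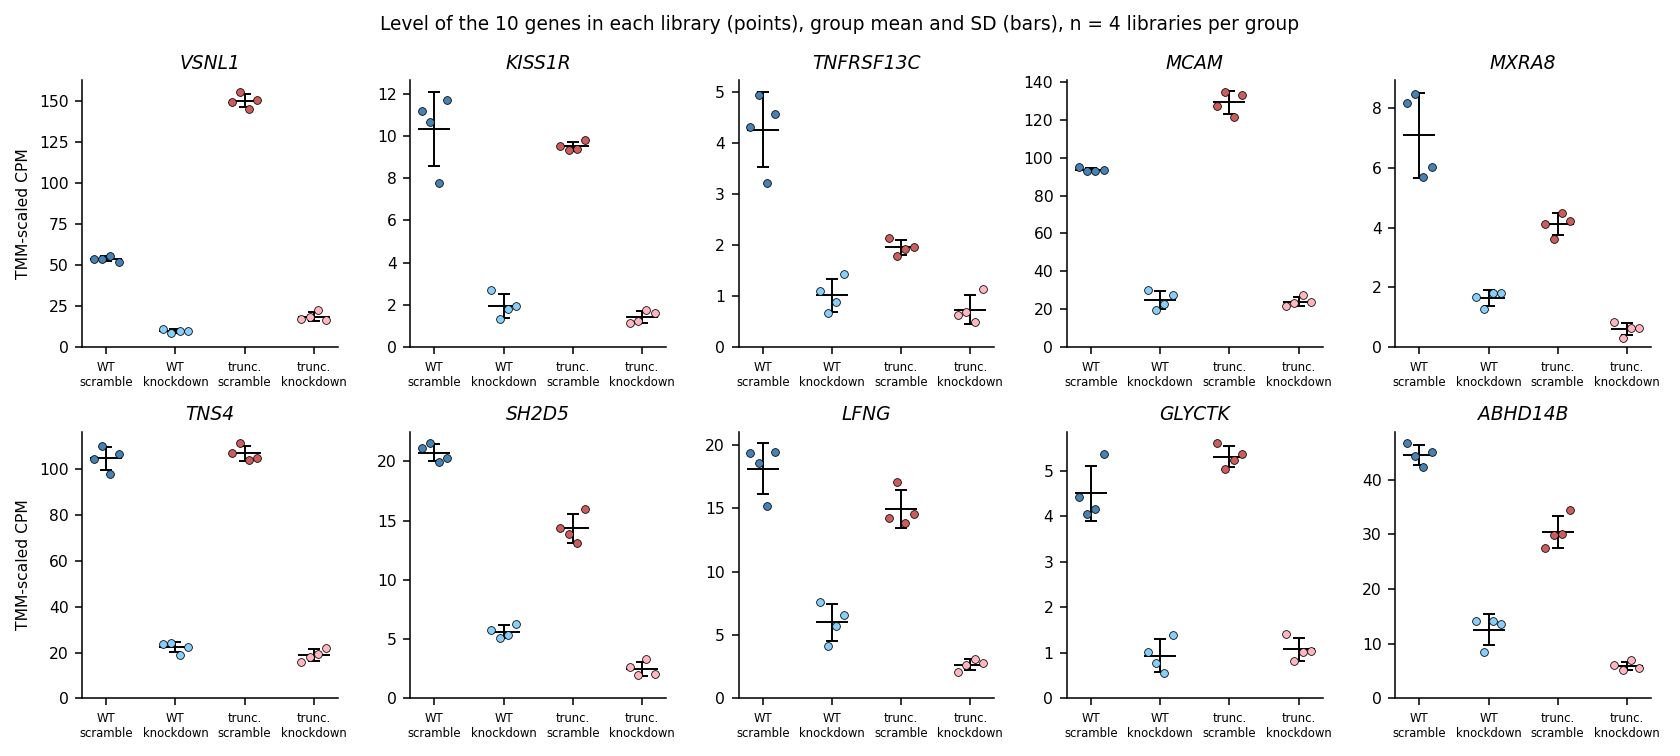
Level of each of the 10 genes in TMM-scaled CPM in every library (points), with the group mean and SD (bars, n = 4), for WT scramble, WT knockdown, truncation scramble and truncation knockdown cells. All knockdown points lie below all scramble points in each panel, which the choice of the genes favours. VSNL1 and MCAM stand higher in truncation scramble than in WT scramble cells.

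Across libraries of a group the 10 genes often deviated together. The same measures were not computed for other genes, so whether this is particular to the 10 was not tested. OTUD5 was also lowest of its group in WT knockdown replicate 2 (17.5 CPM) and in WT scramble replicate 3 (83.9 CPM). WT knockdown replicate 2 held the lowest level of its group for 8 of the 10 genes, with a mean deviation of -20.4% from the group mean, and WT scramble replicate 3 for 7 of them, with -10.5%. Without WT knockdown replicate 2 the median fall in WT cells was -1.94 in place of -2.08. Over the 16 libraries the 45 pairs of genes had a Pearson r of log2 CPM between 0.60 and 0.99 with a median of 0.91, which the shared fall largely sets. After the group means were removed the median was 0.36, with 38 of 45 pairs above 0, over libraries that share depth and scaling.

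The genes just outside the choice were ranked with them by the mean of both knockdown changes, among 12420 genes whose mean log2 CPM was 1 or more. VSNL1, KISS1R and MXRA8 held ranks 1 to 3, TNS4 rank 5, GLYCTK, SH2D5 and MCAM ranks 7 to 9, and ABHD14B and LFNG ranks 12 and 13. TNFRSF13C ranked 38, from 8 in WT and 201 in truncation cells. Between them stood PRF1 (-1.79 and -2.99), OTUD5, the Wnt inhibitor NOTUM (-1.88 and -2.38) and, at rank 14, TM4SF18 (-1.75 and -2.26). CSF3R (-4.03 ± 1.18 and -0.59) ranked 6, with 737 counts in WT scramble replicate 4 and 2 to 6 in the other libraries of that group. Among the genes highest in likeness to the mean standardised log2 CPM of the 10 genes, over 16 libraries, were DHRS11 (r = 0.9967), the copine CPNE1 (0.9967), the metalloprotease ADAM15 (0.9966) and TRIOBP (0.9949). Their log2 fold changes with knockdown ran from -0.98 for CPNE1 to -1.52 for TRIOBP in WT cells and from -1.19 for CPNE1 to -1.98 for ADAM15 in truncation cells. The correlation does not depend on the size of a fall.

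Relatives and partners of the 10 genes were examined in 9 lists, the 10 genes themselves left out. Of 153 tested list genes edgeR called 99 with knockdown in WT cells (43 higher, 56 lower) and 103 in truncation cells (45 higher, 58 lower), that is 64.7% and 67.3% where all genes gave 50.3% and 56.7%. The medians of the list genes were 0.00 and -0.05. Over all tested genes 25.2% were called higher and 25.1% lower in WT cells, and 28.7% higher and 28.1% lower in truncation cells. The difference between the genotypes' knockdown effects was called by edgeR for 5.69% of all tested genes, 974 in number (350 higher, 624 lower). Without WT knockdown replicate 2 there were 1661 such calls, and with upper-quartile scaling 502 were higher and 397 lower.

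Of the calcium sensors and their kin, 3 of 8 fell and none rose in WT cells, while 2 fell and 2 rose in truncation cells. The potassium channel partners KCNIP2 (-1.22 ± 0.23 and -1.14 ± 0.24) and KCNIP3 (-0.87 ± 0.18 and -0.75 ± 0.20) fell in both genotypes, and the retinal sensor GUCA1B rose in truncation cells (0.52 ± 0.14) and stood at -0.01 ± 0.14 in WT cells. HPCAL1, among the most abundant sensors of the list, fell by 0.35 on the log2 scale in WT cells and was not called in truncation cells.

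Genes downstream of the kisspeptin receptor had 4 of 15 higher and 7 lower in WT cells, and 3 and 7 in truncation cells, the 7 lower genes being the same. Phospholipase PLCB3 (-1.19 ± 0.07 and -1.50 ± 0.07) and protein kinase PRKCD (-0.92 ± 0.07 and -1.19 ± 0.07) fell, whereas the G protein regulator RGS2 rose by 1.49 ± 0.07 in WT and by 0.66 ± 0.08 in truncation cells, a difference of -0.83. The receptor kinases GRK2 and GRK6 and the arrestins ARRB1 and ARRB2 made up 4 of the other lower genes, with -0.63, -0.61, -0.74 and -0.62 in WT cells, in that order.

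In the BAFF receptor family and non-canonical NF-kB pathway 5 of 12 genes rose and 4 fell in WT cells, and 5 rose and 5 fell in truncation cells. The kinase MAP3K14, which drives this pathway, rose by 0.78 ± 0.10 and 0.98 ± 0.10, as did the receptor TNFRSF12A (0.35 ± 0.08 and 0.63 ± 0.08). The pathway's precursor gene NFKB2 fell by 0.41 and 0.39 on the log2 scale. TRAF1 fell in WT cells (-0.67 ± 0.19) and stood at -0.11 ± 0.21 in truncation cells.

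Of 19 other adhesion genes of the immunoglobulin fold and known partners of MCAM, 8 rose and 4 fell in WT cells, and 5 rose and 4 fell in truncation cells. The laminin LAMA5 (-1.02 ± 0.09 and -0.99 ± 0.09) and the galectin LGALS1 (-0.51 ± 0.08 and -0.97 ± 0.08) fell, and the nectin NECTIN4 rose (1.02 ± 0.17 and 0.66 ± 0.15). ALCAM, a close relative of MCAM, rose by 0.72 and 0.75, opposite to MCAM. L1CAM of the same list fell with MCAM (-0.66 ± 0.09 and -0.96 ± 0.09). BCAM fell in WT cells (-0.38 ± 0.10) and stood at 0.19 ± 0.10, not called, in truncation cells.

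Tensins and focal adhesion partners gave 5 higher and 6 lower of 18 in WT cells and 6 and 8 in truncation cells. The integrin ITGB4 fell most (-1.46 ± 0.12 and -2.04 ± 0.12). TNS2 fell too (-1.07 ± 0.10 and -0.91 ± 0.10), while TNS1 (0.03 and 0.09) and TNS3 (0.15 and -0.16) were not called, and the growth factor receptor EGFR rose (0.50 ± 0.10 and 0.58 ± 0.10). Among SH2D adaptors and SRC family kinases 1 of 13 rose and 5 fell in WT cells and 3 rose and 7 fell in truncation cells. Changes were small here, the kinase FRK at 0.57 ± 0.13 and 0.46 ± 0.12 being among the largest. SH2D3C rose in truncation cells (0.57 ± 0.17) and stood at 0.14 ± 0.18 in WT cells, and SH2D2A at -0.43 ± 0.20 and -0.52 ± 0.22 passed in truncation cells only, a call lost in 6 fits without 1 library (adjusted p of up to 0.154).

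The Notch pathway had 12 of 34 genes higher and 15 lower in WT cells, and 12 and 13 in truncation cells. The other Fringe genes differed from LFNG in size. RFNG fell by 0.76 in WT and 0.71 in truncation cells on the log2 scale, and MFNG fell by 0.91 in WT cells and stood at 0.30, not called, in truncation cells. Gamma-secretase subunits moved in opposite directions, NCSTN falling (-0.82 ± 0.06 and -1.23 ± 0.06) with APH1A while PSEN2 rose by 0.49 in WT cells. The target gene HES4 fell (-0.75 ± 0.10 and -1.28 ± 0.11), as did HES1 and NRARP, and the target HEY1 rose (0.94 ± 0.20 and 1.68 ± 0.21).

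Glycerate, serine and fructose metabolism had 8 of 17 lower and 2 higher in either genotype, with medians of -0.22 and -0.40, and the 8 lower genes were the same in both. They included ketohexokinase KHK (-0.996 and -1.08), triokinase TKFC (-0.59 and -1.07) and the serine hydroxymethyltransferase SHMT2 (-1.33 ± 0.07 and -1.81 ± 0.07). The glycine decarboxylase GLDC fell as well (-0.58 ± 0.15 and -1.10 ± 0.16). Of 17 other ABHD hydrolases 6 rose and 4 fell in WT cells and 7 rose and 4 fell in truncation cells, ABHD4 rising (0.91 ± 0.07 and 0.66 ± 0.06), ABHD11 falling (-0.63 ± 0.06 and -0.78 ± 0.06) and ABHD15 falling (-0.57 ± 0.10 and -0.37 ± 0.10).

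**Figure D4:**
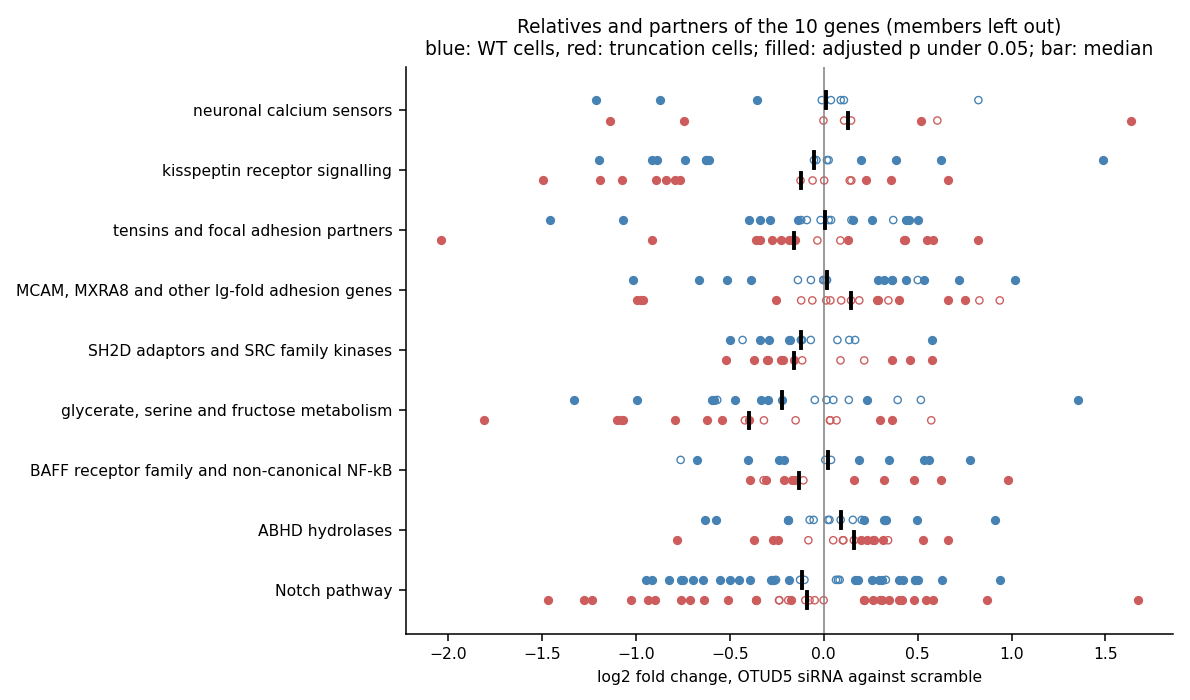
Log2 fold change of knockdown against scramble for the tested genes of 9 lists of relatives and partners, in WT cells (blue) and truncation cells (red), filled where edgeR's adjusted p was under 0.05, with a bar at each list's median. Rising and falling genes stand side by side in nearly every list, and glycerate, serine and fructose metabolism has the lowest medians (-0.22 and -0.40).

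Chromosomal neighbours were examined as the nearest 2 tested genes on each side, 40 in all. In WT cells 22 were called by edgeR (8 higher, 14 lower, 55.0% against 50.3% of all genes) with a median of -0.06, and in truncation cells 27 (10 higher, 17 lower, 67.5% against 56.7%) with a median of -0.13. TNS4 was flanked by transcripts that fell with it. ENSG00000279806, 0.5 kb beyond its 3′ end and on the same strand, fell with log2 fold changes of -1.29 ± 0.16 and -1.88 ± 0.16 (edgeR adjusted p of 4.04e-07 and 2e-10), and the long non-coding RNA ENSG00000266088, 15.4 kb from its 5′ end, with -1.76 ± 0.40 and -2.72 ± 0.55. The first of these is an annotation still to be experimentally tested, and reads running past TNS4's annotated end cannot be told apart from it. The second, ENSG00000266088, was near the floor. Its mean level was 1.0 CPM in scramble and 0.29 CPM in knockdown libraries of WT cells, and 0.52 and 0.07 CPM in those of truncation cells.

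Next to KISS1R, the transcription factor ARID3A rose by 1.11 ± 0.06 and 1.68 ± 0.06 only 4.8 kb away, while WDR18 (-0.93 ± 0.08 and -1.26 ± 0.08) and MED16 (-0.38 ± 0.06 and -0.55 ± 0.06) fell. Around GLYCTK, the phosphatase PPM1M fell (-0.94 ± 0.10 and -1.13 ± 0.10), the dynein DNAH1 rose (0.75 ± 0.13 and 0.84 ± 0.12) and so did the pseudogene PPP2R5CP (1.01 ± 0.34 and 1.28 ± 0.31). The PPP2R5CP call in WT cells was lost without WT scramble replicate 3 or WT knockdown replicate 3 (edgeR adjusted p of 0.0574 and 0.0507) and without the filter on low counts (0.0579). Around ABHD14B, PARP3 (-0.86 ± 0.08 and -0.98 ± 0.08) and PCBP4 (-0.64 ± 0.07 and -0.82 ± 0.08) fell. All 3 named neighbours of TNFRSF13C fell, SHISA8 (-0.74 ± 0.10 and -0.72 ± 0.11), CENPM (-0.59 ± 0.08 and -0.80 ± 0.09) and SMIM45 (-0.92 ± 0.24 and -0.67 ± 0.24), the last of these calls in truncation cells being lost without the filter (edgeR adjusted p = 0.0718). Beside MXRA8 the Wnt adaptor DVL1 fell (-0.50 ± 0.07 and -0.62 ± 0.07) and the taste receptor TAS1R3 rose in truncation cells (0.88 ± 0.33), a call lost in 4 fits without 1 library with an adjusted p of up to 0.116. CYRIA, 872.8 kb from VSNL1, rose (0.81 ± 0.24 and 1.79 ± 0.31), and KIF17 beside SH2D5 rose in WT cells (0.51 ± 0.18), a call lost in 3 fits without 1 library with an adjusted p of up to 0.101. No neighbour of MCAM or LFNG was called with a change of at least 0.5.

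**Figure D5:**
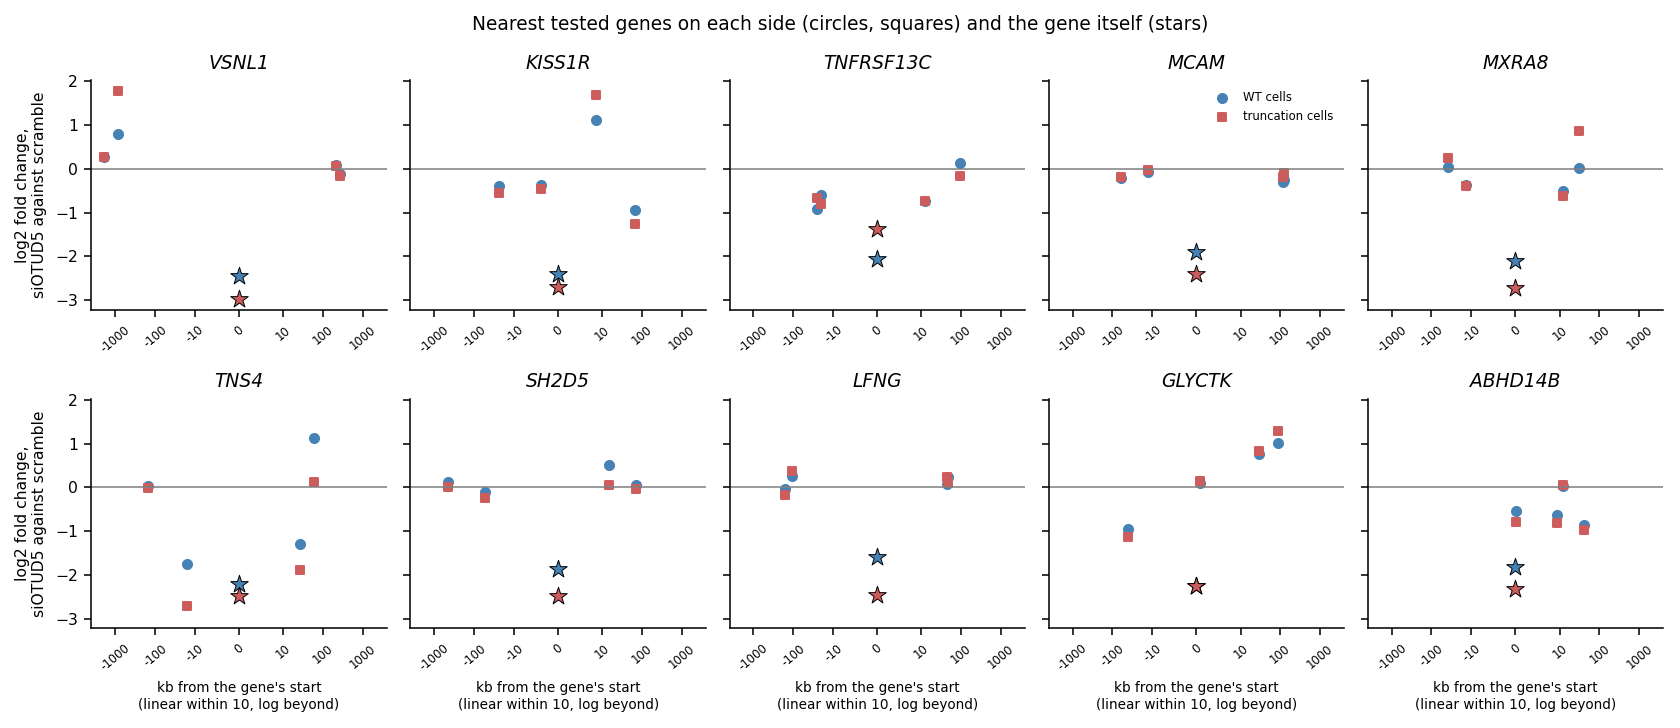
Log2 fold change of knockdown against scramble for each of the 10 genes (stars) and its nearest 2 tested genes on each side (circles for WT, squares for truncation cells), by distance between gene starts in kb, with an axis that is linear within 10 kb and logarithmic beyond. TNS4 is the only one of the 10 with a neighbour below -1.5, and ARID3A beside KISS1R rises by 1.11 and 1.68.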

How the data were processed

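RNA of 16 HCT116 libraries was sequenced, 4 in each of 4 groups. The authors deposited raw counts per Ensembl gene (60668 genes), a filtered count table (22916 genes) and CPM scaled by TMM, a signal. STAR 2.7.3a, DESeq2, edgeR, limma and hg38 were used, per the submitters' processing notes. No source used here gives the counting program, the annotation or whether strand was used. Groups follow the labels' description, genotype and treatment. The 10 genes, the gene lists, motifs and rules for named genes were chosen with earlier results of these data known.

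Levels are the deposited signal values. Tests used the deposited counts. After filterByExpr, 17104 genes with a symbol in the deposited table were fitted with edgeR 4.0.16 (R 4.3.3, TMM scaling, quasi-likelihood test, 1 coefficient per group, 12 residual degrees of freedom), two-sided, with Benjamini-Hochberg adjustment over all of them and calls at an adjusted p under 0.05. The common biological coefficient of variation was 7.25%. A value after ± is a standard error of the log2 fold change. It was derived as the absolute change divided by the square root of the quasi-likelihood F statistic. The code was tested on simulated data. Library totals were 28777244 to 29645663 counts, and the members with the lowest levels rest on 9 to 55 counts in each knockdown library.

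Named genes were the 10 members, OTUD5 and PSMD4, and up to 3 called genes per list with the largest change and a mean log2 CPM of at least 0. Neighbours were named when called with a log2 change of at least 0.5 in either genotype. The 5 genes just outside the choice and 4 of the 5 most alike were named too. Some genes that meet these rules are not reported here. ALCAM, L1CAM, BCAM, HPCAL1, KHK, TKFC, NFKB2, ARRB1, ARRB2, GRK2, GRK6, TNS1, TNS3, RFNG, MFNG, APH1A, PSEN2, HES1, NRARP, CBL, ABHD14A and the marker genes were named after their values were seen. Alternatives were DESeq2 1.42.0, upper-quartile scaling, no filter, a replicate block, fits of only the groups compared, and leaving out each library. Positions are 1-based from GENCODE release 29 on GRCh38.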

Additional observations from a re-analysis of the deposited data

Results flagged for a closer look

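ABHD14B in WT knockdown replicate 2 was far below the other libraries of its group, at 8.42 CPM against 13.5 to 14.2, with a gap of 0.884 of the group's range. Of 40 such checks, 10 genes in 4 groups, it was the one past Dixon's limit, and chance passes it in about 1 in 20.

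Among PSMD4 and the genes named by rule from the lists and neighbours, 8 passed edgeR's interaction term for the knockdown effect between genotypes, with adjustment over all 17104 genes. All but PSMD4 were named for the size of their knockdown changes, of which this term is made. Their adjusted p-values are therefore printed for scale and are not tests free of that choice. Larger falls in truncation cells were found for SHMT2 (-0.48, adjusted p = 0.0051), LGALS1 (-0.46, 0.0121), NCSTN (-0.41, 0.00666), HES4 (-0.53, 0.0374) and ITGB4 (-0.58, 0.0363). RGS2 rose less in truncation cells (-0.83, adjusted p = 6.75e-05), and ARID3A rose more (0.57, adjusted p = 0.00044 by edgeR). PSMD4, the gene of the edited protein, rose by 0.54 more in truncation cells (edgeR adjusted p = 0.000347). The calls for HES4 and ITGB4 were lost in 9 and 11 of the 16 edgeR fits without 1 library, with adjusted p of up to 0.0828 and 0.0707, and with upper-quartile scaling (0.0725 and 0.066). Of the genes named after their values were seen, HPCAL1 (0.35, edgeR adjusted p = 0.0115), TKFC (-0.47, 0.0141), APH1A (-0.33, 0.0144), BCAM (0.57, 0.0155), MFNG (1.22, 0.0371) and the markers EPCAM (-0.31, 0.0174), KRT18 (0.46, 0.0309) and COL1A1 (0.42, 0.0461) passed too. These adjusted p-values are likewise printed for scale. PRF1 (-1.21), NOTUM (-0.50) and ADAM15 (-0.47) were named for their knockdown changes or their likeness to the 10 genes, and these differences carry no test.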

How the results depend on the processing

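Counts of called genes among the 10, their relatives and their neighbours stayed within 1.5 times the main count under all alternatives run, and the median changes of the 10 kept their direction and moved by less than 1 SD. Over all genes the 974 calls for the difference between knockdown effects were 653 to 1661 without 1 library, 1470 with DESeq2 and 899 with upper-quartile scaling. Truncation against WT on average called 7 to 9 of the 10 genes when 1 library was left out, 6 to 7 in scramble cells and 5 to 7 in knockdown cells. In the paired fit with the replicate block these counts were 8, 6 and 6, and 101 list genes were called with knockdown in WT cells against 99 without it. Deviations of same-numbered libraries correlated at -0.23 to 0.35, over 0.1 in 9 of 24 pairs, with replicate 3 positive in all its pairs (0.09 to 0.34). A library correlated best with its own number in 21 of 48 comparisons with another group, and 3 of 16 libraries did so in every group. The labels do not say what a number shares. The block ended the LFNG call in scramble cells (-0.29, adjusted p = 0.0583 by edgeR) and the SH2D2A call in truncation cells, and no other call of a named gene. The KISS1R change in knockdown cells passed with DESeq2 (-0.45, adjusted p = 0.045) and without the filter (-0.45, 0.0427), and TNS4 on average with upper-quartile scaling (-0.13, 0.0487). The TNS4 change in knockdown cells did not pass in a fit of only those groups (adjusted p = 0.0583 by edgeR). PSMD4's rise in WT cells (0.16 ± 0.06) was lost in 5 fits without 1 library, with adjusted p of up to 0.118 by edgeR. Depth limits TNFRSF13C, MXRA8 and GLYCTK, with 9 to 55 counts in the knockdown libraries.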
